A study of Rattus norvegicus with 16 samples.

Results

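The genes described here are 7 genes of gastric acid secretion in the parietal cell: Atp4a, Atp4b, Kcne2, Kcnq1, Aqp4, Hrh2 and Cckbr. They were chosen by name, as every probe on the array whose gene name equals one of the 7, which gave 7 of 26115 gene names and 12 of 30367 probes of the array. Expression was measured in suckling Wistar rats, named Wistar Han in the methods, that received saline solution (group C) or obestatin at 250 nmol/kg BW (group OH) by gavage, 2 times daily, starting on day 14 and ending on day 21 after birth; the legends of the paper write the dose in ug. Obestatin is a peptide cut from the precursor of ghrelin. RNA of stomach or of middle intestine was hybridized on 16 two-colour Agilent arrays, 4 for each tissue of C rats and 4 for each tissue of OH rats, with the tissue in Cy5 and a pool of RNA from all rats in Cy3. Which region of the stomach was taken is not given in the sources used here.

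Each value below is a log2 ratio of Cy5 to Cy3, so that 0 is the level of the pool, and it was averaged over the spots of a probe. Replicates are separate rats. In the paper treatment went by litter, and the litters of the rats on the arrays are not stated. Rats of a group may thus be littermates. The sources do not settle whether stomach and intestine arrays of a group came from the same rats. Over the 16 arrays 69.4% to 77.6% of spots were well above background in Cy5, and replicate arrays of a group correlated at 0.707 to 0.943 over the probes tested. The C and OH arrays were scanned on different days, so treatment cannot be told apart from day of scan. The slide of each array is not recorded here, so an effect of slide on treatment or tissue differences cannot be told apart either. The median raw Cy3 signal of the pool was 188 to 195 on the C arrays and 341 to 399 on the OH arrays. Chief cell, mucous cell and enterocyte markers fitted the tissue labels (limma). In C stomach 5 of 5 chief cell and 5 of 5 surface and neck mucous cell markers were higher, beside 22.7% of all probes. In C middle intestine 6 of 7 enterocyte markers were higher, beside 22.3% of all probes. Higher in C stomach were also 4 of 5 pancreas and 6 of 7 striated muscle markers. Of the markers of these stomach lists, Chia, Muc5ac, Cela1, Ptf1a, Tnnt3 and Myh1 were well above background throughout a group in stomach only. These had to be higher there. In tissue RNA, fewer cells of a type and less RNA per cell cannot be told apart.

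Parietal cells acidify the stomach lumen with a proton pump that exchanges cytoplasmic protons for luminal potassium. The pump needs a potassium channel in the same apical membrane to return potassium to the lumen, and it is switched on by histamine, gastrin and acetylcholine acting on receptors of the basolateral membrane. In rodents the parietal cell is still maturing during the suckling period. Atp4a codes the catalytic alpha subunit of the pump and Atp4b its glycosylated beta subunit. Kcnq1 codes the pore-forming subunit of the channel and Kcne2 its accessory subunit. Aqp4 codes a basolateral water channel, Hrh2 the histamine H2 receptor and Cckbr the receptor for gastrin and cholecystokinin.

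The sequences of 6 probes are given to show which piece of a transcript each of them read. They include the probe of Aqp4 at base 986 and the dimmer probe of Cckbr, which differed from the brightest ones. None is printed for Atp4b or Kcne2, nor for the brightest probes of Kcnq1, Aqp4 and Cckbr. Coordinates come from the rn4 build, as given in the array files, and bases of the transcript are counted as the design counts them. Every probe is 60 bases long and spans 60 bases of the genome without a break. At least 1 reading frame is open along each of the 6. Capitals mark a stop codon at the end of the probe, which was found in the probes of Aqp4 and Hrh2.
Atp4a, base 357, chr1:85757289-85757348, plus strand: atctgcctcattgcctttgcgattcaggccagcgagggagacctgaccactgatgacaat
Atp4a, base 3015, chr1:85768945-85769004, plus strand: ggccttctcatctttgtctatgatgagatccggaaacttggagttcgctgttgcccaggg
Kcnq1, base 1980, chr1:203802631-203802690, plus strand: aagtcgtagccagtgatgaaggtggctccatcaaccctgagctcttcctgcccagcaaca
Aqp4, base 986, chr18:6630285-6630344, minus strand: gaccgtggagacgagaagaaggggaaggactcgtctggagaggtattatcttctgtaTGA
Hrh2, base 1017, chr17:16497967-16498026, minus strand: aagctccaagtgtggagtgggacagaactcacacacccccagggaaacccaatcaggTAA
Cckbr, base 725, chr1:163165347-163165406, plus strand: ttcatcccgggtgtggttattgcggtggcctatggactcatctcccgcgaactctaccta
The other 6 probes lie at base 1353 of Atp4b (chr16:81008937-81008996, plus strand), base 1600 of Kcne2 (chr11:32290711-32290770, plus strand), base 2877 of Kcnq1 (chr1:203803528-203803587, plus strand), bases 1609 and 4840 of Aqp4 (chr18:6629662-6629721 and chr18:6626431-6626490, minus strand) and base 2072 of Cckbr (chr1:163166890-163166949, plus strand). A gene was called by its brightest probe, which is the one at base 3015 for Atp4a, 2877 for Kcnq1, 1609 for Aqp4 and 2072 for Cckbr.

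All 6 of the genes that could be tested were higher in stomach than in middle intestine, in C rats and in OH rats alike, and none was called between OH and C rats in either tissue. Differences between C stomach and C middle intestine ran from a log2 value of 2.09 for Kcnq1 to 7.99 for Kcne2. Hrh2 was near background and was not tested. A call is an adjusted p under 0.05 in limma, over 21174 probes, each with Cy5 well above background throughout at least 1 group. Beside the 6 of 6 genes, 44.9% of all probes were called between C stomach and C middle intestine, 22.7% as higher in stomach and 22.3% as lower, and 43.7% had arrays that did not overlap. Between OH stomach and OH middle intestine 38.2% of all probes were called, 19.2% as higher in stomach and 19.1% as lower, and 35.2% had arrays that did not overlap. Of the 6 genes, 5 were well above background in all 4 groups, whereas Cckbr entered the test through stomach only and so had to be higher there.

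**Figure D1:**
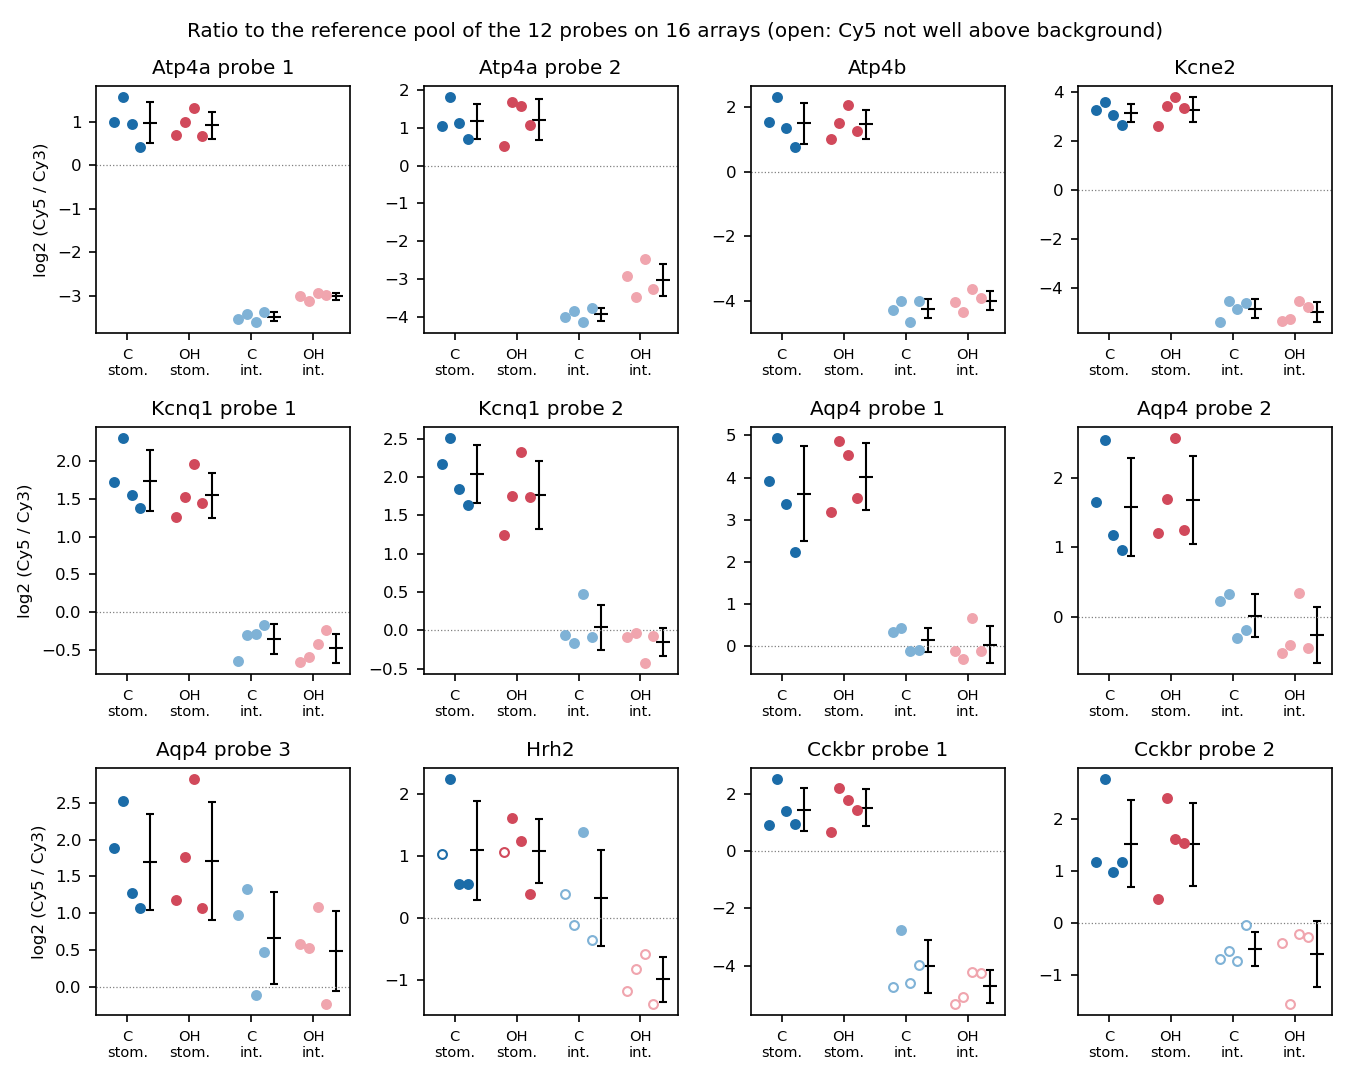
Log2 ratio of Cy5 to Cy3 (vertical axis) of the 12 probes in the 4 groups, 1 point for each array in the order of replicates 1 to 4, with the mean and SD of 4 arrays at the right of each group. Open points are arrays on which Cy5 was not well above background, and where a gene has several probes, probe 1 is the brightest. The stomach arrays of Kcne2 lie between 2.62 and 3.80 and its intestine arrays between -5.37 and -4.52.

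The alpha subunit of the pump, read at base 3015 of Atp4a, gave log2 ratios of 0.99, 1.56, 0.94 and 0.41 on C stomach replicates 1 to 4 and 0.69, 0.98, 1.31 and 0.66 on OH stomach replicates 1 to 4. On the intestine arrays it gave -3.54, -3.42, -3.60 and -3.38 in C and -3.01, -3.11, -2.93 and -2.98 in OH. The group means were 0.97 ± 0.47 in C stomach and -3.48 ± 0.10 in C middle intestine (SD, n = 4). Every stomach array lay above every intestine array, and Cy5 was still well above background on all 8 intestine arrays. The difference between C stomach and C middle intestine was 4.45 (SE 0.20, adjusted p = 3.41e-10, limma), a 21.9-fold higher ratio. In OH rats it was 3.92 (adjusted p = 1.5e-09). The second probe, at base 357, gave 5.10 (SE 0.28) in C and 4.24 in OH rats.

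The beta subunit, Atp4b, gave ratios of 1.54, 2.30, 1.35 and 0.78 on C stomach replicates 1 to 4 and 1.02, 1.5, 2.07 and 1.26 on the OH stomach arrays. In middle intestine it gave -4.27, -4.02, -4.65 and -4.01 in C and -4.04, -4.35, -3.64 and -3.91 in OH rats. The tissues did not overlap, and the arrays of C and OH rats did in both. The means were 1.49 ± 0.63 in C stomach and -4.24 ± 0.30 in C middle intestine (SD, n = 4). Atp4b was 53.1-fold higher in C stomach than in C middle intestine, a log2 difference of 5.73 (SE 0.29, adjusted p = 1.51e-09, limma). In OH rats the log2 difference was 5.45 (SE 0.29). Cy5 alone gave 4.81 in C and 4.66 in OH rats, as Cy3 of the pool differed by -0.95 (adjusted p = 2.45e-05, limma) between the C tissues and by -0.79 between the OH tissues.

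Kcne2, the accessory subunit of the channel, had the largest difference of the 6 genes. Its ratios were 3.26, 3.59, 3.07 and 2.68 in C stomach and 2.62, 3.43, 3.80 and 3.35 in OH stomach. In middle intestine they were -5.37, -4.53, -4.85 and -4.61 in C and -5.33, -5.27, -4.52 and -4.77 in OH rats. Its arrays did not overlap between tissues, with means of 3.15 ± 0.38 in C stomach and -4.84 ± 0.38 in C middle intestine (SD, n = 4). The stomach ratio was 254-fold higher in C rats (log2 7.99, SE 0.28, adjusted p = 2.68e-11, limma) and 309-fold higher in OH rats (log2 8.27). With normexp background correction the log2 differences were 7.00 and 7.51. Cy5 of Kcne2 was well above background on all 16 arrays.

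Kcnq1, the pore of the same channel, differed much less between tissues. It gave 1.73, 2.30, 1.55 and 1.38 in C stomach, 1.26, 1.52, 1.96 and 1.44 in OH stomach, -0.64, -0.30, -0.29 and -0.17 in C middle intestine and -0.66, -0.60, -0.42 and -0.23 in OH middle intestine. The means of C rats were 1.74 ± 0.40 and -0.35 ± 0.20 (SD, n = 4), without overlap. Its intestine arrays thus lay close to the pool, unlike those of Kcne2 and of both pump subunits. The difference was 4.25-fold in C rats (log2 2.09, SE 0.20, adjusted p = 1.01e-06, limma) and 4.05-fold in OH rats. The second probe of Kcnq1 gave 2.00 (SE 0.23) and 1.92 on the log2 scale, within the error of the first. The 95% intervals of the C tissue difference were 1.67 to 2.51 for Kcnq1 and 7.40 to 8.58 for Kcne2.

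The water channel Aqp4 had the widest spread among stomach arrays. At base 1609 it gave 3.93, 4.93, 3.36 and 2.24 in C stomach and 3.19, 4.86, 4.53 and 3.51 in OH stomach. In middle intestine the ratios were 0.34, 0.42, -0.12 and -0.08 in C and -0.11, -0.30, 0.67 and -0.13 in OH rats. The lowest stomach array, C replicate 4, was still above all intestine arrays, and the means of C rats were 3.62 ± 1.12 and 0.14 ± 0.28 (SD, n = 4). The tissue difference was 3.48 (SE 0.48, adjusted p = 4.33e-05, limma) in C and 3.99 (adjusted p = 1.27e-05) in OH rats. Cy5 alone gave 4.55 and 5.22, and Cy3 differed by 1.04 in C and by 1.23 in OH rats without being called (adjusted p = 0.0551 and 0.0534, limma). The 3 probes of Aqp4 disagreed in size. The probe at base 4840 gave 1.57 (SE 0.35, adjusted p = 0.0024) in C and 1.94 in OH rats. The probe at base 986, which ends on the stop codon, gave 1.02 (SE 0.43) in C, where its arrays overlapped between tissues and it was not called (adjusted p = 0.0665), and 1.22 in OH rats (adjusted p = 0.0373). All 3 probes carry the same accession in the array design, and the cause of their disagreement was not tested.

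Cckbr, the gastrin receptor, gave 0.92, 2.53, 1.42 and 0.94 in C stomach and 0.69, 2.20, 1.81 and 1.43 in OH stomach at base 2072. In middle intestine the ratios were -4.77, -2.75, -4.62 and -4.0 in C and -5.34, -5.10, -4.21 and -4.26 in OH rats, where Cy5 was well above background only on C replicate 2, which had the highest of these 8 ratios. The tissues did not overlap, and C stomach had a mean of 1.45 ± 0.75 (SD, n = 4). The log2 difference was 5.48 (SE 0.48, adjusted p = 4.5e-07, limma) in C rats, against a group in which 1 of 4 arrays measured Cckbr. No OH intestine array was well above background, and Cy5 of Cckbr was at least 67.8-fold higher in OH stomach than in OH middle intestine. Such a bound is of Cy5, not of the ratio, and sets the mean Cy5 of the bright group against the lowest signal that counted as well above background on each array of the dim group, or against the dim probe's own where that was higher. With normexp background correction, which lifts low signals, the log2 difference was 2.39 in C and 3.06 in OH rats.

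The second probe of Cckbr, at base 725, was not well above background on any of the 8 intestine arrays. Its Cy5 was at least 3.47-fold higher in C stomach and at least 4.38-fold higher in OH stomach. The brightest probe had the larger difference, and the part of signal over background in this was not tested.

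Hrh2, the histamine receptor, was well above background in Cy5 on 3 of 4 C stomach, 3 of 4 OH stomach, 1 of 4 C middle intestine and 0 of 4 OH middle intestine arrays, and so it was left out of the tests. Its ratios were 1.03, 2.23, 0.55 and 0.56 in C stomach, 1.06, 1.62, 1.24 and 0.39 in OH stomach, 0.39, -0.11, 1.38 and -0.35 in C middle intestine and -1.17, -0.82, -0.57 and -1.38 in OH middle intestine. Stomach and intestine arrays overlapped in C rats and did not in OH rats. The bound for Cy5 of Hrh2 was 1.996-fold higher in OH stomach than in OH middle intestine. The OH stomach mean in it includes replicate 1, which was not well above background, so this is no bound of a measured level. When dim probes were not filtered out, the difference between the OH tissues was called (adjusted p = 0.00203, limma). The difference in C rats was not (log2 0.76, SE 0.42, adjusted p = 0.186).

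**Figure D2:**
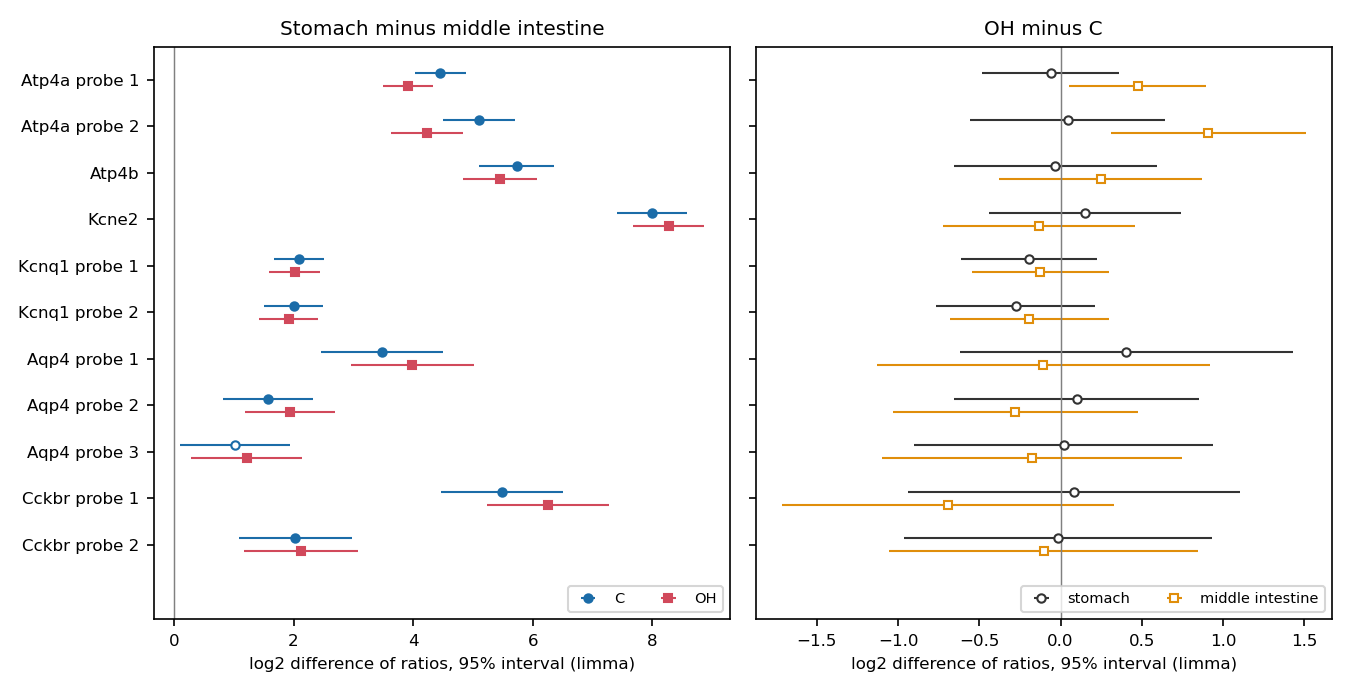
Log2 differences of the 11 tested probes (rows) with 95% intervals from limma, between stomach and middle intestine in C and OH rats (left) and between OH and C rats in each tissue (right). Filled symbols have an adjusted p under 0.05. On the left 10 of 11 probes were called in C rats and 11 of 11 in OH rats, and on the right none was called. The intestine values of Cckbr were mostly not well above background, so its points do not give measured sizes.

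Obestatin was followed by no called change of these genes in stomach. The differences between OH and C stomach ran from -0.19 for Kcnq1 to 0.41 for Aqp4, with 3 genes above 0 and 3 below, and the arrays of the groups overlapped for every one of the 12 probes. None of 6 genes was called by limma (adjusted p from 0.756 to 0.981), none had an unadjusted p under 0.05, and Tukey's HSD, the test named in the methods, called 0. The background in limma was 0% of all probes called and 10.6% with an unadjusted p under 0.05, and 7.6% had arrays that did not overlap. The share of all probes called by Tukey's HSD is not given here. By that test the paper reports differentially expressed genes in each tissue. The 95% intervals were narrowest for Atp4a (-0.48 to 0.36) and Kcnq1 (-0.61 to 0.23). They were wide for Aqp4 (-0.62 to 1.43) and Cckbr (-0.94 to 1.1), and changes of a size within these intervals are not excluded. Intervals of the pump's Atp4b (-0.66 to 0.59) and of Kcne2 (-0.44 to 0.74) lay between these.

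The same held in middle intestine, where limma called none of the 6 genes (adjusted p from 0.404 to 0.984), against 0.368% of all probes. Tukey's HSD also called 0 of them. Only Atp4a had an unadjusted p under 0.05, which 10.5% of all probes had. Its arrays did not overlap between OH and C, with every OH array higher, as was so for 5.86% of all probes in either direction. The difference was 0.48 (SE 0.20, adjusted p = 0.404) at base 3015 and 0.91 (SE 0.28, adjusted p = 0.203) at base 357, where the ratios were -4.0, -3.85, -4.13 and -3.76 in C and -2.92, -3.46, -2.47 and -3.25 in OH rats.

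The reference channel moved with this pattern. Scaled to the 75th percentile of each array, Cy3 of Atp4a in OH was lower than in C by 0.23 (adjusted p = 7.27e-05) and by 1.34 (adjusted p = 3.22e-12) at the 2 probes on the log2 scale (limma). Cy5, which holds the tissue, differed by 0.26 and -0.42 and was not called (adjusted p = 0.698 and 0.639). The pool was the same on all arrays by design, yet Cy3 was called between OH and C in middle intestine for 61.9% of all probes and 5 of the 11 probes described here, and in stomach for 44.8% and 5 of 11. Between stomach and middle intestine Cy3 was called for 36.6% of all probes and 5 of 11 in C rats, and for 14.3% and 6 of 11 in OH rats. The part of the Cy3 shift in the ratios was not tested.

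**Figure D3:**
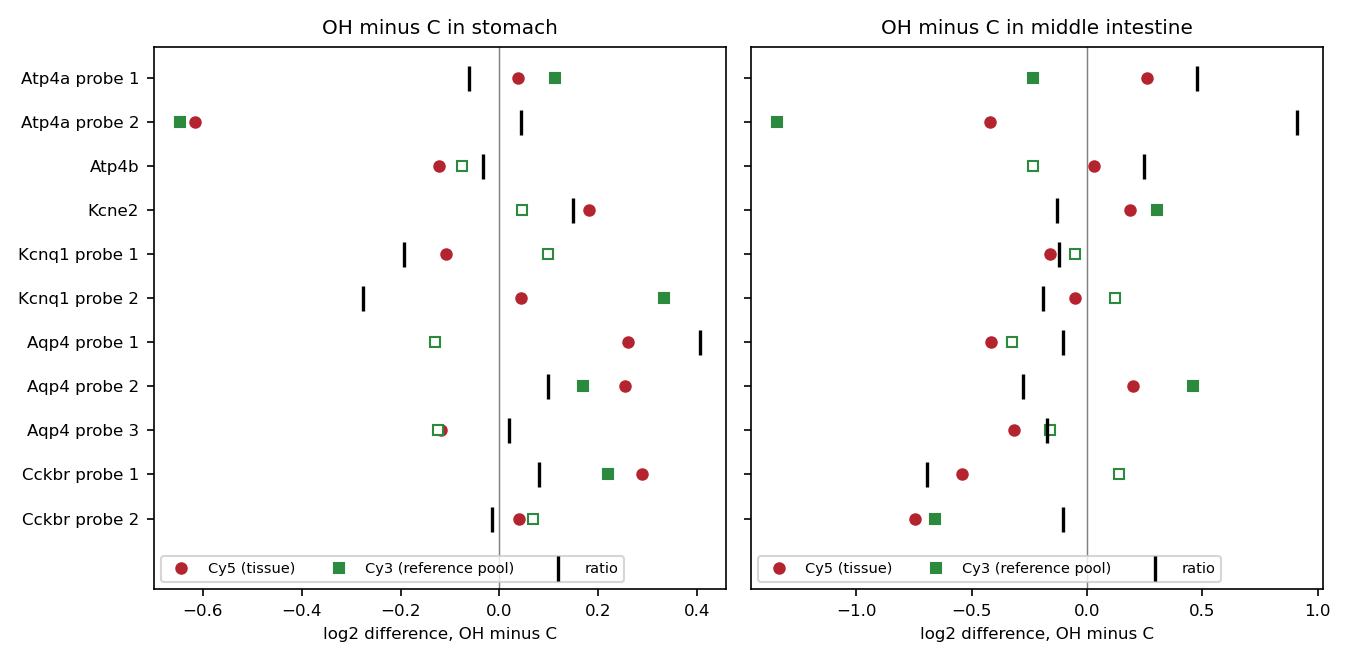
Log2 differences between OH and C rats (horizontal axis) in stomach and in middle intestine for the 11 tested probes (rows), shown for Cy5 (circles) and Cy3 (squares, filled where the adjusted p is under 0.05), each scaled to its array's 75th percentile, and for the ratio (bars). At base 357 of Atp4a (probe 2) in middle intestine the ratio was 0.91 higher while Cy3 was 1.34 lower.

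Hrh2 was also apart between the intestine groups, since its OH arrays (-1.38 to -0.57) lay below its C arrays (-0.35 to 1.38), but 7 of these 8 arrays were not well above background and the difference was not called when dim probes were kept (adjusted p = 0.108, limma). For Cckbr 7 of the 8 intestine arrays were not well above background, so no difference is given. Atp4b differed by 0.25 (SE 0.29), and Kcne2, Kcnq1 and Aqp4 by -0.13, -0.12 and -0.11, with overlapping arrays. The response to obestatin did not differ by test between tissues for any of the 6 genes (0 called and 0 with an unadjusted p under 0.05, limma; adjusted p from 0.837 to 0.981; background 0% called and 5.85% unadjusted). For Atp4a the difference between the 2 responses was -0.54 (SE 0.28).

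The stomach arrays of a group differed from each other in much the same order across most of these genes. C stomach replicate 2 had the highest ratio of the C stomach arrays for all 12 probes, and replicate 4 the lowest for 9 of 12. OH stomach replicates 2 and 3 were the 2 highest of OH stomach for all 12 probes, and replicate 1 was the lowest for 9. Within groups the SD over the 8 stomach arrays was 0.35 for Kcnq1, 0.40 for Atp4a, 0.44 for Kcne2, 0.55 for Atp4b, 0.70 for Cckbr and 0.97 for Aqp4. After the mean of the other 5 genes on the same array was subtracted, it was smaller for each of the 6, from 0.16 for Atp4b to 0.58 for Aqp4. These are descriptions, since all genes of an array share 1 RNA sample. In middle intestine the subtraction lowered the SD of 4 genes and raised that of Atp4a (0.09 to 0.27) and Kcnq1 (0.20 to 0.27).

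The means of marker lists of other cell types also differed between the stomach arrays. The mean ratio of 7 striated muscle markers was -1.36 on C stomach replicate 2 and 3.46 to 4.22 on the other 3 C stomach arrays. On the OH stomach arrays it lay between -0.52 and 0.95. The mean of 5 chief cell markers was 3.79 on C stomach replicate 2 against 1.83 to 2.33 on the other 3. On OH stomach replicates 1 to 4 it was 1.65, 3.69, 3.02 and 3.36, so replicate 4 did not follow the order of the 7 genes there. Gast, the gene of gastrin, was at -2.01 on C stomach replicate 2 and at 4.26 to 4.73 on the other 3. On OH stomach replicate 4 it was at -2.02 and on the other 3 at 3.34 to 3.92, while the intestine arrays lay between -1.79 and -1.02. Smooth muscle markers had their highest means on OH stomach replicates 1 and 4 (1.00 and 0.11), against -2.49 to -1.40 on the other 6 stomach arrays. OH stomach replicates 1 and 4 were the 2 lowest OH stomach arrays for every probe described here. C stomach replicate 4, the lowest of C stomach for 9 of 12 probes, had a smooth muscle mean of -2.07. Between OH and C stomach the median difference was -2.33 for striated muscle (7 of 7 markers lower), 1.51 for smooth muscle (5 of 5 higher) and -1.01 for surface and neck mucous cells (5 of 5 lower), and it was 0.54 for chief cells (4 of 5 higher) and -0.64 for forestomach epithelium (4 of 5 lower), with no marker called by limma. The lists' part in the spread of the 7 genes was not tested. Without C stomach replicate 2 the differences between OH and C stomach became 0.13 for Atp4a, 0.24 for Atp4b, 0.84 for Aqp4 and 0.44 for Cckbr, and none was called.

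**Figure D4:**
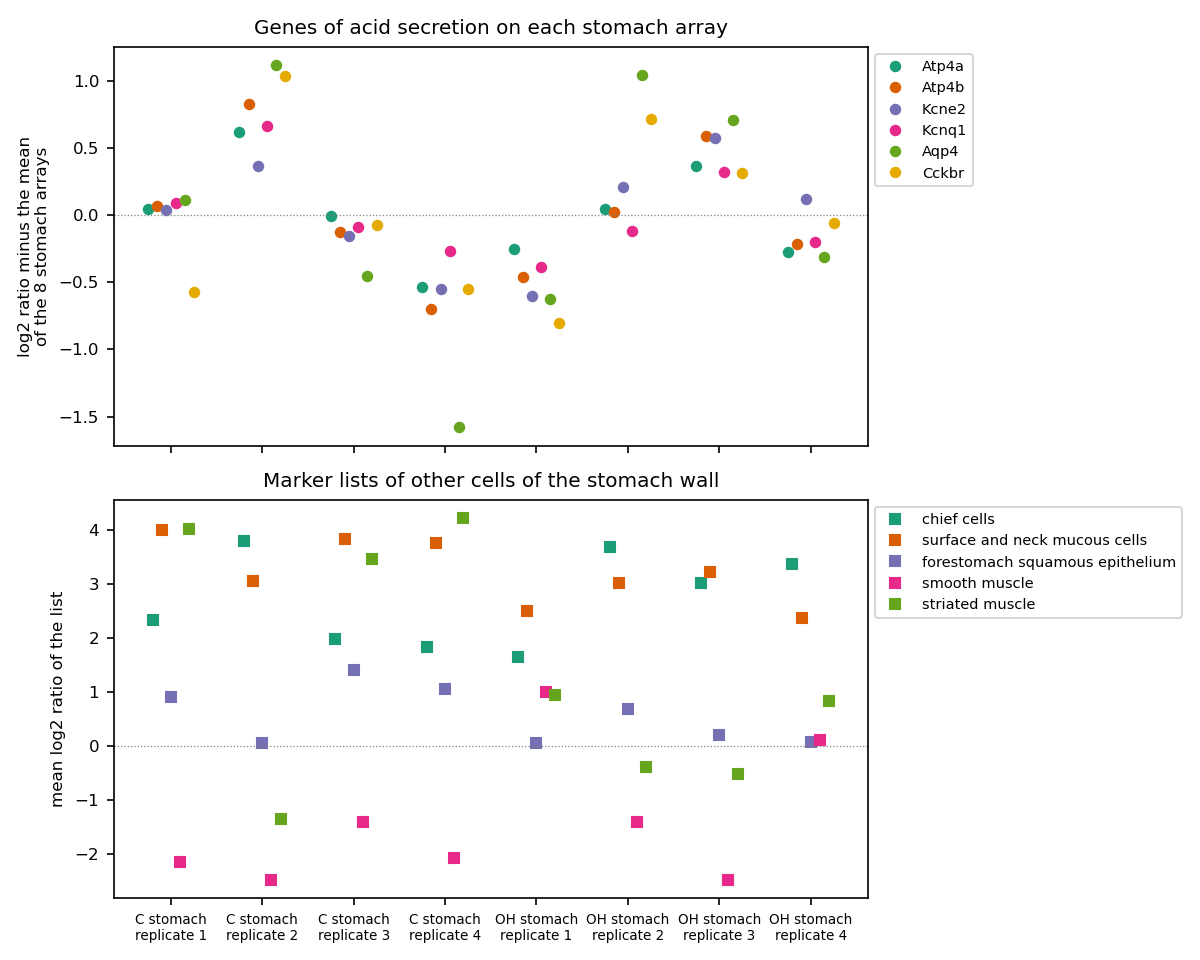
The 8 stomach arrays (horizontal axis) with, above, the log2 ratio of each of the 6 tested genes minus its mean over these arrays and, below, the mean log2 ratio of 5 marker lists. On C stomach replicate 2 all 6 genes lie above their means while the striated muscle list is at -1.36.

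Other genes of the pathway were taken from 5 lists of 38 genes, of which 36 could be tested. Between C stomach and C middle intestine 25 were higher in stomach, 1 was lower and 10 were not called, beside 22.7% of all probes higher and 22.3% lower. Of the 36, 7 passed the filter on low signals through stomach only, 6 of them among the 25, and so had to be higher there. Among the other 29, 19 were higher, 1 was lower and 9 were not called. In OH rats 18 of these 29 were higher, 2 were lower and 9 were not called, beside 19.2% and 19.1% of all probes. Among ligands, 5 of 6 were higher in C stomach: Gast by 4.44 (SE 1.40), Hdc, which makes histamine, by 4.35 (SE 0.34), Slc18a2, which loads histamine into vesicles, by 2.82, and Grp, gastrin-releasing peptide, by 1.49. The largest 4 are given. Among other receptors, 3 of 5 were higher, namely Sstr2, a somatostatin receptor, by 2.08, Casr, the calcium-sensing receptor, by 1.45 and Gpr39, a zinc-sensing receptor, by 1.12. Gast overlapped between tissues through C stomach replicate 2 and OH stomach replicate 4.

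Among ion transport genes, Kcnj16, a potassium channel gene, Slc9a4, a sodium-proton exchanger gene, Slc26a7, an anion transporter gene, and Kcnj15, another potassium channel gene, were not well above background on any of the 8 intestine arrays. These genes passed the filter through stomach only and had to be higher there. In C stomach Cy5 was at least 121-fold higher for Kcnj16, 83.8-fold for Slc9a4 and 33.3-fold for Slc26a7. In OH stomach these bounds were 94.2-fold, 64.9-fold and 25.7-fold. Clic6, a chloride channel gene that was measured on all 16 arrays, was higher in C stomach by 5.34 (SE 0.31) on the log2 scale. Cftr, the chloride channel of intestinal crypts, was the 1 gene lower in C stomach, by a log2 difference of -2.54 (SE 0.36, adjusted p = 5.26e-05, limma). In OH rats the 2 lower genes were Cftr (-2.71) and Rab11fip1 (-1.02), which takes part in vesicle recycling; they were named after their values were seen. In the traffic of the canalicular membrane Ezr, which codes ezrin, was higher by 1.52 and the small GTPase gene Rab25 by 1.28, and 3 of 7 genes were not called. Of the transcription factors, Esrrg was not well above background on any intestine array, and its Cy5 was at least 19.2-fold higher in C stomach. Sox2 was higher by 4.16, Foxq1 by 3.85 and Gata4 by 0.85, and the other 2 of 6 were not called.

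**Figure D5:**
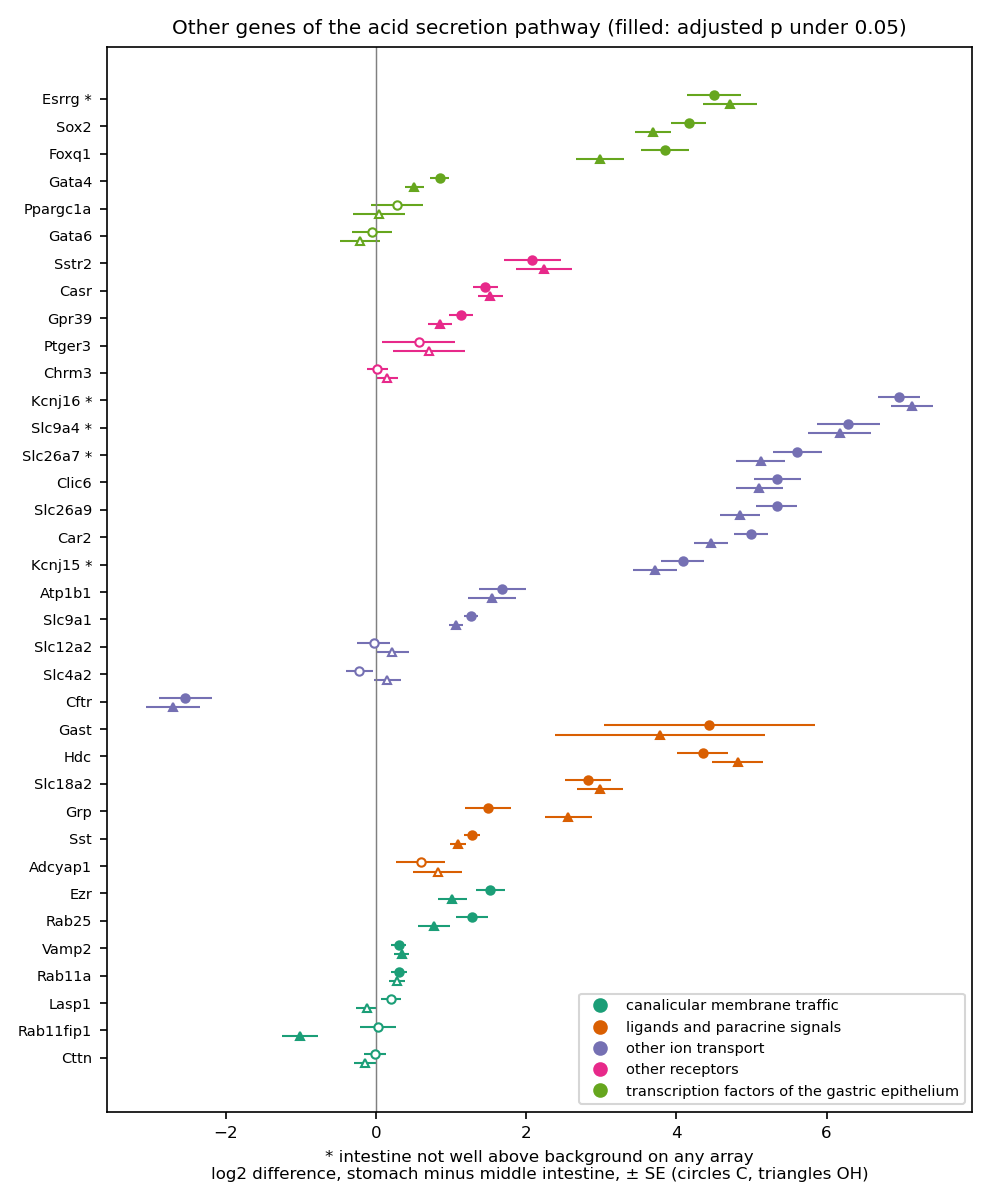
Log2 difference between stomach and middle intestine (horizontal axis, with SE) of 36 other genes of acid secretion (rows), in C rats (circles) and OH rats (triangles), coloured by list and filled where the adjusted p is under 0.05. A star marks the 5 genes not well above background on any intestine array, whose fitted differences are set against background signal and are not measured sizes. Clic6 lies at 5.34 in C rats and Cftr at -2.54.

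Between OH and C rats limma called no gene of these lists in either tissue. In stomach 5 of the 36 had an unadjusted p under 0.05, as did 4 of the 36 in middle intestine, beside 10.6% and 10.5% of all probes. In stomach the ion transport genes with the largest differences were Slc26a9, an anion transporter gene, at -0.88 (SE 0.27, adjusted p = 0.312) and Kcnj15, a potassium channel gene, at 0.55 (SE 0.29). In middle intestine the largest fitted differences were those of Slc26a7 and Kcnj15, but neither gene was well above background on any intestine array, so no values are given. Tukey's HSD called Slc26a9 in stomach, and in middle intestine it called Kcnj15, on background signal. The ligands with the largest differences in stomach were Grp at 0.71 (SE 0.31) and Gast at -0.60 (SE 1.40).

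Close relatives of the 7 genes were paralogs of pump, channel, water channel and receptor. Of 16 listed, 14 were tested, and 4 were higher and 2 lower in C stomach, a share of calls near the 44.9% of all probes. Of the 14, 3 passed the filter through stomach only. Among these 3, Aqp5 and Atp12a were called and had to be higher there. Among the other 11, 2 were higher, 2 were lower and 7 were not called. Aqp5 was higher by 4.54 (SE 0.61), Aqp3 by 3.97 (SE 0.55), Kcne1 by 2.96 (SE 0.22) and Atp12a, the non-gastric proton pump, by 2.75 (SE 0.54). In C middle intestine Aqp5 was well above background on 2 of 4 arrays and Atp12a on 1 of 4, so these 2 differences are not measured sizes. Kcne3, an accessory subunit that also pairs with Kcnq1, was lower in C stomach, by a log2 difference of -1.89 (SE 0.26, adjusted p = 3.64e-05, limma), as was Aqp8, by -1.46 (SE 0.44). Of the Kcne genes tested, Kcne2 and Kcne1 were thus higher in C stomach and Kcne3 was higher in C middle intestine. Kcne4 was not called, with mean ratios of 0.56 in C stomach and 0.26 in C middle intestine. In OH rats the values were 3.07 for Kcne1 and -2.18 for Kcne3.

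Among 18234 genes, each centred on its own mean over the 16 arrays, the named genes with the smallest root mean square difference from Atp4a were Lpl (0.26), Fa2h (0.27) and Epn3 (0.27). For Atp4b they were Fabp3 (0.24), Clic6 (0.29) and Tuba8 (0.35), and for Kcne2 they were Rmt1 (0.26), Pdia2 (0.44) and Gif (0.47), where Gif codes gastric intrinsic factor. Kcnq1 was nearest to Nr4a2 (0.15), Lrpap1 (0.18) and B4galnt1 (0.19), and Aqp4 to C4bpb (0.36), Car9 (0.48) and Pthlh (0.48). Cckbr was nearest to Mt4 (0.54), Tuba8 (0.55) and Atp4b (0.58), but its intestine ratios were mostly near background. Among the 6 genes themselves the most alike pair was Atp4a and Aqp4 (0.56) and the least alike was Kcne2 and Kcnq1 (3.05), the 2 subunits of 1 channel. This measure is set mainly by the size of the tissue difference.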

How the data were processed

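Total RNA of 16 tissue samples was hybridized on Agilent SurePrint G3 rat arrays with 2 colours. For each array the authors deposited a scanner table made with Feature Extraction, with the intensity of every spot in both channels and the processed intensity after background subtraction and Lowess normalization within the array. The labels name version 10.7.3.1 of this software and the file headers version 10.10.1.1. They also deposited a table of log10 ratios, which was used as an alternative. Samples were grouped by their labels.

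The log2 ratio of processed Cy5 to processed Cy3 was taken for spots that were neither controls nor marked as outliers, and averaged over the spots of a probe. Of 30367 probes, 21174 were kept, for which Cy5 was well above background on the 4 arrays of at least 1 group and each group had at least 3 values. limma 3.58.1 under R 4.3.3 (lmFit, eBayes) fitted all arrays together, with a mean for each group. Benjamini-Hochberg adjustment ran across the 21174 probes, and adjusted p under 0.05 was a call. The number of arrays limits the precision. Tukey's HSD, which the methods name, was an alternative, as were other background corrections, centring, Cy5 alone, filters, a replicate block, array weights and leaving out arrays. The fits were tested on simulated ratios.

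The 7 genes and all lists were chosen with earlier results of these data known. A gene of the pathway lists is not reported here. From each list at most 4 called genes with the largest difference are named, or 2 where none was called, and for each of the 7 genes the 3 genes most like it. All 7 symbols matched RefSeq's current rat genes (GRCr8), used here to check names.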

Additional observations from a re-analysis of the deposited data

Results flagged for a closer look

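In 4 of 48 groups of 4 arrays, 1 array lay so far from the other 3 that its gap to the nearest, as a share of the group's whole range, passed the 95% critical value of Dixon; chance gives 1 in 20, which is 2.4 of 48. The share was 0.871 for the second probe of Kcnq1 in OH middle intestine, where replicate 3 was at -0.43 and the others between -0.08 and -0.03. It was 0.866 for the probe of Aqp4 at base 4840 in OH middle intestine, where replicate 3 was at 0.34 and the others between -0.53 and -0.41. The probe of Cckbr at base 725 was flagged in C stomach, with a share of 0.886 and replicate 2 at 2.78 against 0.98 to 1.19. It was flagged again in OH middle intestine, with a share of 0.873 and replicate 2 at -1.56 against -0.38 to -0.21, none of them well above background. No brightest probe of a gene was flagged.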

How the results depend on the processing

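The count of the 6 genes called was 6 in both tissue comparisons under all alternatives, except that Hrh2 made it 7 in OH rats when dim probes were not filtered out, and 0 in both comparisons of OH with C under the same 28 alternatives. For the difference of the response between tissues it was 0 under the 26 that were run, without Tukey's HSD and without the fit of only the groups compared. Of 168 values of single genes in each tissue comparison, all kept their direction and their call, but sizes moved. In C rats Aqp4 ran from 2.02 (mean of its probes) to 4.55 (Cy5 alone), Cckbr from 2.39 (normexp and loess) to 5.91, Kcne2 from 7.00 (normexp and loess) to 8.19 and Atp4b from 4.81 (Cy5 alone) to 5.97. Between OH and C, 17 of 168 values changed sign in stomach and 2 of 168 in middle intestine, and none was called (lowest adjusted p 0.287 and 0.142, limma). In stomach Atp4b became 0.0041 with normexp and loess and 0.13 with array weights, and Atp4a became 0.038 with Cy5 alone and 0.045 with array weights. In middle intestine Kcne2 became 0.19 with Cy5 alone. With single arrays left out, the difference between OH and C stomach ran from -0.25 to 0.13 for Atp4a, from -0.27 to 0.24 for Atp4b, from -0.018 to 0.38 for Kcne2, from -0.054 to 0.84 for Aqp4 and from -0.14 to 0.44 for Cckbr, and in middle intestine from -0.32 to 0.0050 for Aqp4. The counts of the 6 genes stayed at 6, 6, 0 and 0.

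Replicate numbers were not taken to pair the samples, since the sources do not state a pairing. Of the 8 same-numbered stomach and intestine pairs within a treatment, 5 correlated over 0.1 (range -0.12 to 0.32). The best match had the same number for 5 of 8 arrays, so these values do not exclude a pairing. With the replicate block the 6 genes gave 6, 6, 0 and 0 calls, and Atp4a in middle intestine remained at 0.48 (adjusted p = 0.4, limma). The alternatives for the other pathway genes were chosen after seeing the data. Array weights called 5 of them between OH and C stomach in place of 0: Grp (0.99), Chrm3 (0.43), Slc26a7 (0.86), Slc26a9 (-0.93) and Lasp1 (-0.38). Tukey's HSD called 1 in each tissue, that in middle intestine on background signal. The cause was not tested. The share of all probes called under array weights or by Tukey's HSD is not given here. Without it these counts say nothing particular about the pathway genes. Signal over background limits what can be said in middle intestine of Hrh2, Cckbr, Kcnj15, Kcnj16, Slc26a7, Slc9a4 and Esrrg.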

Other observations

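The pool was made of equal amounts of RNA from all rats, and the share of each tissue in it was not given in the sources used here. The mean ratio of OH stomach to the pool was 0.91 for Atp4a, 1.46 for Atp4b, 1.53 for Cckbr, 1.54 for Kcnq1, 3.30 for Kcne2 and 4.02 for Aqp4, and in C stomach it ran from 0.97 for Atp4a to 3.62 for Aqp4. A stomach ratio therefore does not rank the genes by level, and no probe was compared with another in level.

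Hdc, which marks the histamine-producing cells next to parietal cells, was at 3.87 on C stomach replicate 2 and at 2.56 to 2.93 on the other C stomach arrays, and at 4.03 on OH stomach replicate 2 and 2.28 on replicate 1. For the 12 probes of the 7 genes, C stomach replicate 2 was the highest of its group in 12, OH stomach replicate 2 in 5, and OH stomach replicate 1 the lowest in 9. Gast did not follow this order, with its lowest values on C stomach replicate 2 and OH stomach replicate 4.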
